A study of Rattus norvegicus with 2 samples.

Results

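Close pairs of RYBP peaks were examined in cardiomyocytes (CMs) of newborn rats. A close pair is a couple of neighbouring peaks less than 3000 bp apart, edge to edge, with no further peak within 12.5 kb on either side and with each peak under 5000 bp wide. The pairs were chosen by the measured positions and widths of the peaks in the list that the authors called. Of the 41598 peaks, 1820 met the rule and formed 910 pairs, 4.38% of the list. Fold enrichment and significance did not enter the rule, but they come from the same ChIP sample and the same calling as the positions. All values below are therefore descriptions and no test was applied.

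The data come from a RYBP ChIP sample and its input, with 1 sample of each. Per the labels, both are wild-type CMs of the heart, labelled as control in treatment and cultured in DMEM with fetal bovine serum. In ChIP-seq an antibody pulls down a protein together with its DNA, which is then sequenced, while the input is chromatin taken before that step. The peaks were called for the ChIP sample against the input, so each value already is relative to the background. The labels give neither the strain nor the purity of the CMs, and the peak list holds no gene names, so the cell type could not be checked against markers. Sequencing depth was not analysed here. The list gives 1 value per peak with no replicate values, and whether reads of replicates were merged for it is not given in the sources used here.

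RYBP (RING1 and YY1 binding protein) is a subunit of non-canonical Polycomb repressive complex 1 (PRC1), which places ubiquitin on histone H2A. Polycomb complexes are best known for keeping developmental genes silent. The study from which the data come asks how RYBP also takes part in the activity of enhancers, and in particular of super-enhancers (SEs), which are clusters of neighbouring enhancers. Enhancers and promoters are short stretches of open chromatin between nucleosomes, and neighbouring elements often lie within a few kilobases of each other. A close pair of peaks that stands apart from all others is the smallest group that neighbouring RYBP sites can form. Whether its partners carry like amounts of RYBP is the comparison that the pairs allow. The genes and the DNA sequence at the pairs are not described, since no sequence or annotation of Rnor_6.0, the build of the list, was used here.

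The place of the close pairs in the list was first determined. Joining of peaks less than 12.5 kb apart gave 2847 regions of exactly 2 peaks, and the close pairs were 32.0% of them. In 932 of these regions the gap was under 3000 bp, and 22 of the 932 were left out because a partner was 5000 bp wide or wider. The pairs with a gap of 3000 to 12499 bp and the same limit on width, called distant pairs below, numbered 1905. A further 10 distant pairs were left out for their width. Most short gaps lay elsewhere, as 10549 neighbouring peaks of the whole list were less than 3000 bp apart. Of these, 9084 couples under the same limit on width lay in joined regions of 3 or more peaks. These couples served as a second comparison and are called clustered neighbours. They are not independent of each other, because 1 peak can belong to 2 couples.

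The pairs were short structures. From the start of the left peak to the end of the right peak they extended over a median of 3272 bp (quartiles 2536 and 4062 bp), and the longest over 9177 bp. The gap had a median of 1531 bp and ranged from 599 to 2992 bp. The smallest gap anywhere in the list was 597 bp, so the shortest pairs stood at the lower limit of separate calls. The peaks covered a median of 51.6% of the span of a close pair, against 16.6% in distant pairs, a difference that the limit on the gap itself sets. Beyond the pair, the nearer of the outer neighbours was a median of 24385 bp away in close pairs and 23512 bp in distant pairs. The order-statistic 95% intervals of these medians, 23021 to 26003 bp and 22504 to 24522 bp, overlapped. All such intervals cover counting error only and treat the peaks as independent.

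Gaps of less than 1000 bp were more frequent than longer ones. Between 597 and 1000 bp there were 260 pairs, or 64.5 pairs per 100 bp of gap (exact Poisson 95% interval 56.9 to 72.9). The density was 36.4 (31.3 to 42.1) between 1000 and 1500 bp and 30.4 (25.8 to 35.6) between 2500 and 3000 bp. It was lower again over the distant pairs, where it went from 21.5 (19.5 to 23.6) at 3000 to 5000 bp to 17.6 (16.0 to 19.3) at 10 to 12.5 kb. The drop after 1000 bp and the smaller one within the distant pairs were both larger than the counting intervals. The gaps of the whole list fell as well, from 806 per 100 bp below 1000 bp to 291 between 2500 and 3000 bp, so the excess of the shortest gaps was also present outside the pairs.

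**Figure D1:**
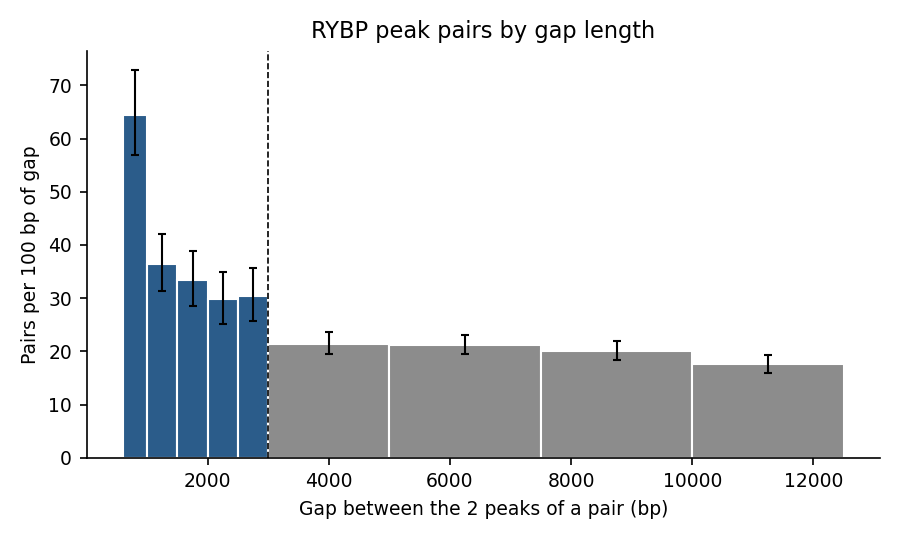
Pairs of RYBP peaks by the gap between them. The x axis is the gap in bp and the y axis the number of pairs per 100 bp of gap, with exact Poisson 95% intervals as error bars; blue bars are close pairs, grey bars distant pairs, and the dashed line marks 3000 bp. The first bar stands at 64.5 pairs per 100 bp and every other bar at 36.4 or less.

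The strength of single members was next compared. Fold enrichment is a linear ratio, the signal of the ChIP divided by the local background and averaged over the peak. Members of close pairs had a median fold enrichment of 3.37 (95% interval 3.31 to 3.43) with quartiles of 2.90 and 4.84, and ranged from 1.51 to 17.8. Members of distant pairs had a median of 3.39 (3.35 to 3.44). The ratio of the medians was 0.993, and it lay on either side of 1 when the limit on the gap was changed (0.975 under 5000 bp and 1.03 under 2000 bp). Isolated peaks, with no neighbour within 12.5 kb and here no limit on width, were stronger, with a median of 3.93 (3.88 to 3.98). Clustered neighbours were weaker, with a median of 3.14 (3.13 to 3.15). Values for members of clustered neighbours count a peak that belongs to several couples several times, so their intervals are not firm. The members of close pairs thus stood between isolated and clustered peaks in fold enrichment, and their interval overlapped that of distant pairs. The median of all peaks in the list, 3.33 (3.32 to 3.34), lay inside the interval of close pairs.

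The significance of each peak is given as −log10 q, where q is the p-value of the peak corrected for the number of tests. Its median was 3.11 in members of close pairs (2.94 to 3.33) and 3.23 in members of distant pairs (3.10 to 3.40). A value of at least 10 was held by 471 of the 1820 members, 25.9% (Wilson 95% interval 23.9 to 27.9), where 25.3% of all peaks had it. A value under 2 was held by 514 members, 28.2% (26.2 to 30.4), where 28.8% of all peaks had it. Peaks under 2 fall short of the threshold for peaks that the study's methods state, although the list holds them. Both shares were near the background, whose values lay within their intervals. The members ranged in −log10 q from 1.0 to 139. Members were a median of 654 bp wide (618 to 691 bp) and members of distant pairs 622 bp (605 to 639 bp). Clustered neighbours were wider, with a median of 819 bp (806 to 832 bp). The narrowest width of the list, 286 bp, was shared by 90 members, and the widest member extended over 4940 bp.

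The partners of each pair were then compared with each other. In the median close pair the stronger partner had 1.26 times the fold enrichment of the weaker one (95% interval 1.23 to 1.29), and in the median distant pair 1.29 times (1.26 to 1.32). The partners lay within 1.2 times of each other in 386 close pairs, 42.4% (39.2 to 45.7), and in 38.5% of distant pairs (36.3 to 40.7). They were 2 times or more apart in 134 close pairs, 14.7% (12.6 to 17.2), and in 16.0% of distant pairs (14.4 to 17.7). For each of these measures the intervals of close and distant pairs overlapped. Among clustered neighbours 52.8% (51.8 to 53.9) lay within 1.2 times and 9.23% (8.65 to 9.84) were 2 times or more apart, outside the intervals of both kinds of pairs. Their fold enrichments also lay closer together, with quartiles of 2.84 and 3.68 against 2.90 and 4.84 in close pairs. At like −log10 q the order was mixed. The median ratio was 1.28 against 1.24 in close pairs with both partners at least 10, and 1.11 against 1.15 with both at 2 to 10.

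The stronger partners of close pairs had a median fold enrichment of 4.14 (3.99 to 4.34) and a median −log10 q of 6.50. The weaker partners had medians of 2.97 (2.94 to 3.03) and 2.11. Taken by position on the chromosome, the left and right partners had similar counts. The right partner had the higher fold enrichment in 464 of 910 close pairs, 51.0% (47.7 to 54.2), and in 48.7% of distant pairs (46.4 to 50.9). It was the wider partner in 446 close pairs, 49.0% (45.8 to 52.3).

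**Figure D2:**
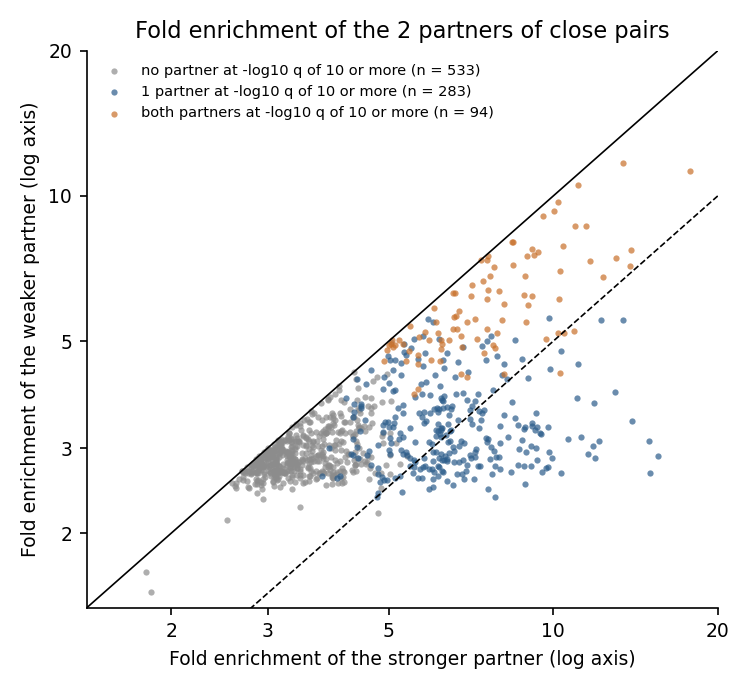
Fold enrichment of the stronger partner (x axis) and of the weaker partner (y axis) of the 910 close pairs, both on log axes. Each point is a pair, orange where both partners had a −log10 q of at least 10 (94 pairs), blue where 1 partner had (283) and grey where neither had (533); the solid line marks equal values and the dashed line a stronger partner at 2 times the weaker one. Many blue points spread to the right at a weaker value near 3.

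The strengths of the partners followed each other weakly. Across the 910 close pairs, Spearman's rho between the fold enrichment of the left and the right partner was 0.18 (95% interval 0.12 to 0.25). It was 0.09 (0.04 to 0.13) across the 1905 distant pairs, whose interval overlapped, and 0.07 (0.05 to 0.09) across the 9084 couples of clustered neighbours, whose interval did not. The corresponding values were 0.21 and 0.15 for −log10 q, and 0.02 and −0.07 for width. These correlations are across pairs of 1 library, which share its depth and background, and pairs are not independent replicates. The 9084 couples of clustered neighbours hold only 14164 different peaks, so some peaks enter more than once. Their interval treats the couples as independent, and its separation from that of close pairs is therefore not firm. In close pairs the rho of fold enrichment was 0.27 for gaps under 1000 bp (260 pairs) and 0.08 for gaps of 2500 to 3000 bp (152 pairs). It was 0.15, 0.17 and 0.16 in the bins between. In the bins of distant pairs it was 0.04, 0.08, 0.12 and 0.11, from the shortest to the longest gaps. The rho of single bins is given without intervals, so a change of rho with the gap was not tested.

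The weaker partner was also described by the strength of the stronger one. Where the stronger partner had a fold enrichment of 3 to 4, the weaker one had a median of 2.89 in 326 close pairs (95% interval 2.85 to 2.92) and of 2.90 in 627 distant pairs (2.88 to 2.92). Where the stronger partner reached 6 to 8, the weaker one had a median of 3.52 in 155 close pairs (3.27 to 3.68) and of 3.39 in 335 distant pairs (3.22 to 3.49). Where it reached 8 or more, the medians were 4.18 in 94 close pairs (3.38 to 5.03) and 3.36 in 140 distant pairs (3.22 to 3.71). The weaker partner of a close pair thus had higher values beside stronger peaks, where by definition it cannot exceed its partner. In distant pairs the median was 3.39 at 6 to 8 and 3.36 at 8 or more. The cause was not tested, and in the last class the intervals of close and distant pairs overlapped. The upper quartile in that class was 6.23 in close pairs and 4.57 in distant pairs.

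Width and strength went together within pairs. In 591 of the 907 close pairs with unequal widths, 65.2% (62.0 to 68.2), the wider partner had the higher fold enrichment, and the share in distant pairs was also 65.2% (63.0 to 67.3). It rose to 89.6% (83.2 to 93.7) among the 134 close pairs that were 2 times or more apart in fold enrichment. The corresponding share was 94.1% (90.8 to 96.2) in distant pairs and 86.4% (83.9 to 88.6) in clustered neighbours. The stronger partners had a median width of 832 bp (766 to 891 bp) and the weaker ones of 557 bp (531 to 588 bp). Widths differed more than fold enrichment did, with a median ratio of 1.83 between the wider and the narrower partner. Across the 1820 members, rho between fold enrichment and width was 0.38. The partner with the higher fold enrichment had the lower −log10 q in 67 close pairs, 7.36% (5.84 to 9.24), so both measures named the same stronger partner in the remaining 843.

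The length of the gap was then set beside these values. The median fold enrichment of members was 3.57 (3.43 to 3.73) at gaps under 1000 bp, 3.45 (3.27 to 3.72) at 1000 to 1500 bp and 3.33 (3.24 to 3.52) at 1500 to 2000 bp. It was 3.17 (3.09 to 3.31) at 2000 to 2500 bp and 3.24 (3.12 to 3.38) at 2500 to 3000 bp. The shortest gaps thus held stronger members than gaps of 2000 to 3000 bp, beyond the intervals. The lowest median thus lay inside the close pairs, at 2000 to 2500 bp. In distant pairs the median was 3.29 (3.24 to 3.38) at 3000 to 5000 bp and 3.46 (3.39 to 3.58) at 10 to 12.5 kb. Members were also wider at short gaps, with a median of 707 bp (639 to 749 bp) under 1000 bp and of 595 bp (534 to 659 bp) at 2500 to 3000 bp, where the intervals overlapped. The ratio between partners was 1.29 (1.23 to 1.35) under 1000 bp and 1.19 (1.16 to 1.26) at 2000 to 2500 bp, again with overlap. This ratio was highest at 1000 to 1500 bp, with 1.32 (1.23 to 1.41). In the bins of distant pairs it lay between 1.27 and 1.31.

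**Figure D3:**
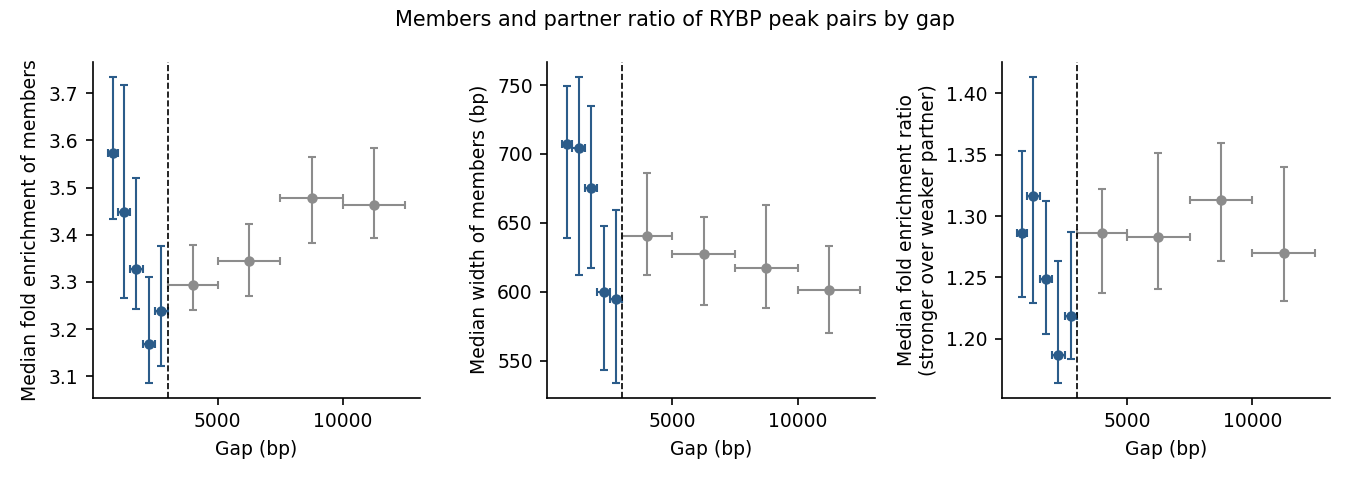
Median fold enrichment of members (left), median width of members in bp (middle) and median ratio of fold enrichment between the partners (right) against the gap in bp. Points are medians, vertical bars order-statistic 95% intervals and horizontal bars the range of the gap; blue marks close pairs, grey distant pairs, and the y axes do not start at 0. Fold enrichment was highest at gaps under 1000 bp (3.57) and lowest at 2000 to 2500 bp (3.17).

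Pairs were further divided by the −log10 q of both partners. Both partners reached 10 or more in 94 close pairs, 10.3% (8.52 to 12.5), and in 163 distant pairs, 8.56% (7.38 to 9.90). Of clustered neighbours 2.75% (2.44 to 3.11) were of this kind. Members at 10 or more were also a smaller share there, 12.5% against 25.9% in close and 27.5% in distant pairs. In the 12.5%, a clustered peak that belongs to several couples counts several times. The groups thus also differed in their share of strong members. Exactly 1 partner reached 10 in 283 close pairs. In 194 of these, 21.3% of all close pairs (18.8 to 24.1), the other partner lay between 2 and 10, and the share in distant pairs was 26.0% (24.1 to 28.1). Before rounding, these intervals just failed to overlap. In the other 89, 9.78% (8.02 to 11.9), it lay under 2, and the share in distant pairs was 11.8% (10.4 to 13.3). Neither partner reached 10 in 533 close pairs, and both were under 2 in 83 of them, 9.12% (7.42 to 11.2), against 10.7% of distant pairs (9.35 to 12.1). At least 1 partner reached 10 in 41.4% of close pairs (38.3 to 44.7) and 46.4% of distant pairs (44.2 to 48.6), whose intervals overlapped slightly.

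The 94 pairs with both partners at 10 or more held 188 of the 471 strong members. The median fold enrichment was 7.52 for their stronger and 5.51 for their weaker partners, and the median widths were 1167 and 807 bp. The median ratio between the partners was 1.24, near that of all close pairs. In the 89 pairs of a strong peak with a partner under 2, the medians were 6.26 and 2.74, with a ratio of 2.27 and widths of 1260 and 512 bp. The median gap was 1241 bp in the strong pairs and 1259 bp where the other partner lay between 2 and 10, against 1716 bp where a strong peak stood beside a partner under 2 and 1844 bp where both were under 2. Of the gaps in the strong pairs 36.2% were under 1000 bp, and of those in pairs with both partners under 2, 16.9% were. By length of the gap, both partners reached 10 in 13.1% of pairs (9.51 to 17.7) under 1000 bp and in 6.04% (3.21 to 11.1) at 2000 to 2500 bp, with overlapping intervals. Both were under 2 in 5.38% (3.23 to 8.83) of pairs under 1000 bp, in 9.34% (5.91 to 14.4) at 1000 to 1500 bp and in 8.38% (5.06 to 13.6) at 1500 to 2000 bp. The shares were 14.8% (9.96 to 21.3) at 2000 to 2500 bp and 10.5% (6.58 to 16.4) at 2500 to 3000 bp. Only the bin of 2000 to 2500 bp had an interval apart from that of the shortest gaps, and the other 3 overlapped with it.

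**Figure D4:**
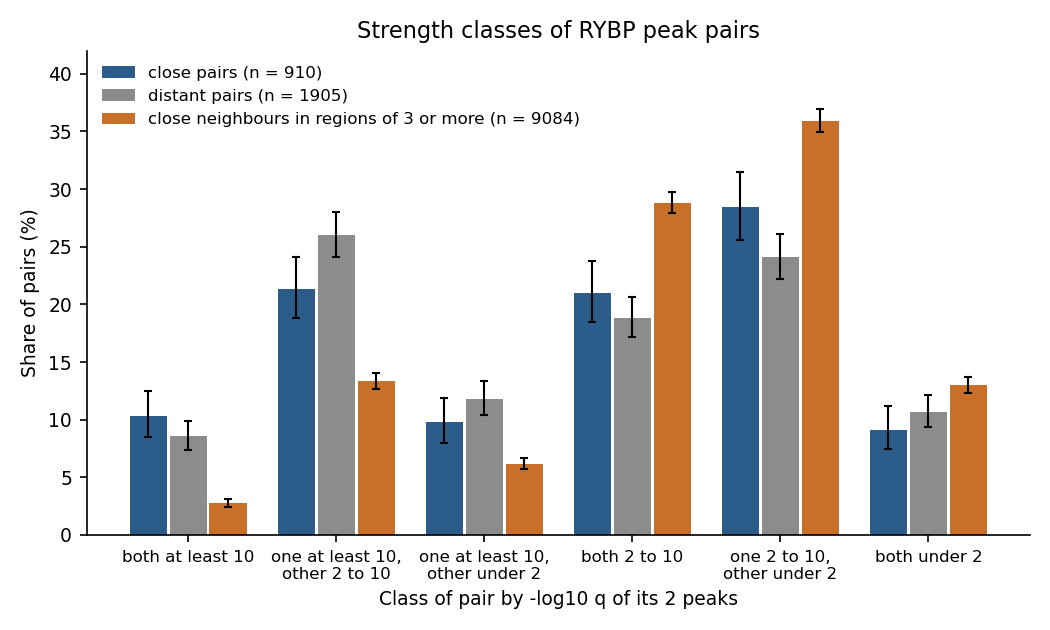
Share of pairs in % (y axis) in 6 classes by the −log10 q of both peaks (x axis), with Wilson 95% intervals as error bars. Blue bars are the 910 close pairs, grey bars the 1905 distant pairs and orange bars the 9084 clustered neighbours. Both kinds of pairs have a larger share of couples with both peaks at 10 or more (10.3% and 8.56%) than clustered neighbours (2.75%). Members at 10 or more were also a larger share in close (25.9%) and distant pairs (27.5%) than in clustered neighbours (12.5%). In the last share, a peak that belongs to several couples counts several times.

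Individual pairs show these kinds. The rule for named pairs took the 5 close pairs whose weaker partner had the highest −log10 q. The first lay on chromosome 5, with peaks at 62070648 to 62072473 and 62073230 to 62074294 in Rnor_6.0, a gap of 756 bp, fold enrichments of 11.3 and 17.8 and −log10 q of 68.0 and 139. The right peak was the narrower one, 1065 bp against 1826 bp, and yet the stronger, which goes against the common order of width and strength. The second lay on chromosome 9, at 114618721 to 114620529 and 114621165 to 114622353, with a gap of 635 bp, fold enrichments of 13.4 and 11.7 and −log10 q of 85.6 and 64.0. The third, also on chromosome 9, at 2177004 to 2178456 and 2181014 to 2182562, had a gap of 2557 bp, fold enrichments of 11.1 and 10.5 and −log10 q of 54.9 and 61.2. Both pairs on chromosome 9 were nearly even, with ratios of 1.15 and 1.05.

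The fourth of these pairs lay on chromosome 1, at 57814266 to 57815978 and 57818423 to 57820314, with fold enrichments of 7.43 and 13.0 but −log10 q of 47.3 and 47.1. Its partners thus differed 1.75 times in fold enrichment and hardly in significance. The fifth, on chromosome 2 at 107217512 to 107218321 and 107221251 to 107222280, had fold enrichments of 8.45 and 8.04 and −log10 q of 31.6 and 39.9. It was the most secluded of the 5, with the nearest other peaks 2215687 bp to the left and 2161433 bp to the right.

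The 5 most uneven pairs joined a strong peak and a weak one. On chromosome 3, a peak at 149084257 to 149085036 with a fold enrichment of 15.0 and −log10 q of 90.4 stood 2843 bp from a peak at 149087880 to 149088336 with 2.67 and 1.68, a ratio of 5.64. On the X chromosome, a peak at 75070459 to 75071761 with a fold enrichment of 15.5 and −log10 q of 83.3 stood 601 bp from a peak at 75072363 to 75072957 with 2.89 and 1.91, a ratio of 5.37. This pair had a gap near the lower limit of the list, but it was picked for its ratio and so cannot show how gap and evenness relate. The other 3 lay on chromosomes 14, 17 and 6, with ratios of 4.83, 4.17 and 4.09. In the pair on chromosome 14, the right peak at 2388514 to 2392992 was 4479 bp wide with a fold enrichment of 15.0, and the left one at 2386294 to 2386993 was 700 bp wide with 3.11. In all 5 pairs the stronger partner was also the wider one.

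The 3 most even pairs among those with both partners at 10 or more had ratios of 1.002, 1.01 and 1.01. On chromosome 20, the peaks at 42963626 to 42964547 and 42965848 to 42969208 had fold enrichments of 7.36 and 7.38, while their widths were 922 and 3361 bp and their −log10 q were 26.6 and 53.5. On chromosome 8, the peaks at 61748672 to 61750153 and 61751852 to 61754052 had fold enrichments of 5.08 and 5.03, with widths of 1482 and 2201 bp. On chromosome 13, the peaks at 25965642 to 25968162 and 25969617 to 25970207 had fold enrichments of 7.61 and 7.51, with widths of 2521 and 591 bp. Equal fold enrichment thus went with unequal width in these 3 pairs.

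The 3 pairs with the largest summed width held a peak close to the limit of 5000 bp, or of 4459 bp in 1 case. The largest, on chromosome 8 at 108102105 to 108107038 and 108108506 to 108111281, summed to 7710 bp with fold enrichments of 5.37 and 4.68. The second, on chromosome 1 at 33909828 to 33912855 and 33913957 to 33918415, summed to 7487 bp, and its narrower left peak was the stronger one, with 10.2 against 5.20. The third, on chromosome 1 at 57324022 to 57328961 and 57330486 to 57332869, summed to 7324 bp with fold enrichments of 10.9 and 5.25. Of the 3, only the second had the stronger partner in the narrower peak.

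The values beside the limits of the rule are given without a test. The widest gaps inside the limit of 3000 bp were both 2992 bp, with ratios between the partners of 2.14 and 1.15. The gaps just outside were 3000 and 3013 bp, with ratios of 1.11 and 1.02. The widest peaks inside the limit of 5000 bp were 4940 and 4934 bp with fold enrichments of 10.9 and 5.37, and the first left out were 5004 and 5181 bp with 3.31 and 3.16. The nearest outer peaks of close pairs were 12514 and 12518 bp away. In the regions of 3 peaks that came nearest to the rule, the third peak was 12481 and 12454 bp away. The ratios between their close partners were 1.05 and 1.22.

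Close pairs were present on all 21 chromosomes of the list. Their members made up between 3.12% of the peaks on chromosome 19 (2.39 to 4.07, 26 pairs) and 6.80% on chromosome 13 (5.50 to 8.39, 40 pairs). The X chromosome held 31 close pairs, with 5.67% of its peaks (4.45 to 7.21). The share of close among close and distant pairs ranged from 23.9% on chromosome 18 (15.3 to 35.3) to 39.2% on chromosome 13 (30.3 to 48.9), and these intervals overlapped. Members of close pairs had the higher median fold enrichment on 12 of the 21 chromosomes and members of distant pairs on the others. The median ratio between partners was lower in close than in distant pairs on 17 of the 21 chromosomes, and ranged in close pairs from 1.16 on chromosome 13 to 1.49 on chromosome 17, which had 23 pairs.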

How the data were processed

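According to the study's methods, Trim Galore served for trimming and Bowtie2, in end-to-end mode, for alignment. Duplicates were removed by Samtools, and the authors ran MACS2 on the ChIP with the input as control. The submitters' processing notes name Rnor_6.0. Merging of replicates is described, but whether it applies to this list is not given in the sources used here. The deposited list, in the broad format, gives per peak a linear fold enrichment ratio, a −log10 p-value and −log10 q-value, and a score that was not used. The methods state a false discovery rate threshold that equals a −log10 q of 2, but the list starts at 1.0 and 28.8% of its peaks lie under 2. All peaks were kept here. MACS2 averages these values over a broad region, which lowers them in wide regions with a strong core.

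Peaks were sorted and joined where the start minus the previous end was under 12.5 kb. The width is the end minus the start, and printed starts are counted from 1. Shares have Wilson 95% intervals, medians order-statistic 95% intervals from the binomial distribution, gap densities exact Poisson 95% intervals, and rho 95% intervals from Fisher's z. All cover counting error only. With 1 ChIP sample no p-value was computed. Read depth is unknown here.

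In a simulated list of 6800 peaks, all 300 planted close pairs were found. The members and the comparisons were chosen with earlier results of these data known. The named pairs were the 5 with the highest −log10 q of the weaker partner, the 5 with the largest ratio of fold enrichment, the 3 with the largest summed width, the 3 most even ones with both partners at a −log10 q of at least 10, and those beside the limits of the rule. The limit of 12.5 kb was taken as the distance to the nearest outer peak. The planned position relative to genes was left out, because the gene tables at hand are of another build (GRCr8). The alternatives were joining distances of 10000 and 20000 bp, gaps under 2000 and 5000 bp, no limit on width, peaks with −log10 q of at least 2 or 5, no partner at the narrowest width and, for 2 shares, pairs at least 1.2 times apart. A gap under 1000 bp was added after seeing the data. The work was done in Python (version 3.11.15) with scipy (1.17.1), numpy (2.4.6) and pandas (2.3.3), and the plots were drawn in matplotlib (3.10.9).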

Additional observations from a re-analysis of the deposited data

How the results depend on the processing

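The 11 results were recomputed under 10 alternatives, which gave 101 values. Of these, 63 stayed inside the 95% interval of the reported value or, for the number of pairs, within 1.5 times of it, and 38 did not. The shares of pairs whose wider or right partner was stronger, the ratio between partners and the rho between partners stayed inside under all but 1 alternative each. Leaving out the limit on width moved none of the 11 results. The number of close pairs (910) was 560 with joining over 20000 bp, 340 at −log10 q of at least 5 and 260 at gaps under 1000 bp. Each follows from the fewer peaks or pairs that these settings admit. The filters on −log10 q of at least 2 and at least 5 also raise the level of the members by construction. They brought the median fold enrichment to 3.79 and 5.38 and the median width to 747 and 1084 bp. The median −log10 q was then 4.74 and 15.3, with shares with both partners at 10 or more of 15.2% and 48.2%, and shares with both partners under 2 of 0 in both. At −log10 q of at least 5, the ratio of the medians of close and distant pairs was 1.06 and the share with the stronger partner on the right 47.4%.

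For the other changes the cause was not tested, except where stated. With joining over 20000 bp, the median fold enrichment was 3.57, the median −log10 q 3.75, the ratio between partners 1.31, and the shares with both partners at 10 or more and under 2 were 13.6% and 7.32%. With joining over 10000 bp, the median fold enrichment was 3.30 and the median −log10 q 2.90. At gaps under 2000 bp, the median fold enrichment was 3.47, the median width 701 bp, the median −log10 q 3.45, the ratio to distant pairs 1.03 and the share with both partners under 2 7.39%. At gaps under 1000 bp, these values were 3.57, 707 bp, 3.67, 1.06 and 5.38%, the share with both partners at 10 or more was 13.1% and the rho 0.27. At gaps under 5000 bp, the ratio to distant pairs was 0.975. Without pairs with a partner at the narrowest width, the median width was 699.5 bp and the median −log10 q 3.35. This filter itself takes out the narrowest members, so the rise in width is in part by construction. Among pairs at least 1.2 times apart, the wider partner was the stronger one in 73.7%. The reported ratio of close to distant pairs (0.993) thus lay below 1 in some settings and above 1 in others. No replicate could be left out and no paired analysis was possible because the labels give 1 ChIP sample.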
